A study of Mus musculus with 47 samples.

Results

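The 10 genes described here make fatty acids from citrate and acetate or switch that pathway on. They are Acly, Acaca, Fasn, Scd1, Elovl6, Thrsp, Slc25a1, Acss2, Srebf1 and Mlxipl, chosen by symbol from the 20796 genes of a count table of mouse gastrocnemius, a calf muscle. All 10 had a row in the table, and all 10 passed the filter on low counts, which left 17159 genes. The table held 47 libraries from 12 groups of strain, sex and diet. The strains were C57BL/6J, the common laboratory mouse, CAST/EiJ, derived from wild mice, and NZO/HlLtJ, which becomes obese and, in many males, diabetic. Females and males of each strain ate a control diet (labelled 10% fat + fiber) or a high fat, high sugar diet (labelled 44% fat + fiber), begun at 6 weeks of age, with muscle taken at 15 weeks. The genotype was labelled wild type in every library, so the groups carried no engineered allele by their labels. Each group held 4 libraries, except that 3 came from the males of CAST/EiJ fed 10% fat. Nothing in the labels states whether each library of a group had its own animal, and p-values then measure only the spread between these samples. The study's title asks how genotype and diet act together on diabetes, and the comparisons below follow from that design.

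In cells that make fat from sugar, the citrate carrier Slc25a1 exports citrate from mitochondria and Acly, ATP citrate lyase, splits it into acetyl-CoA. Acss2 makes acetyl-CoA from acetate instead. Acaca, acetyl-CoA carboxylase, turns acetyl-CoA into malonyl-CoA, and Fasn, fatty acid synthase, builds palmitate from it. Elovl6 elongates palmitate to stearate and Scd1 puts a double bond into the product. Thrsp, also called Spot 14, is a nuclear protein that promotes lipogenesis. Srebf1 encodes SREBP1, a transcription factor activated by insulin, and Mlxipl encodes ChREBP, which responds to glucose. The pathway is known best from liver and from white and brown fat, while muscle fibres are not a main site of it. For that reason the genes were set beside Adipoq, which encodes the fat cell hormone adiponectin, and Ucp1, the uncoupling protein of brown and beige fat cells, in the same libraries. In bulk tissue, fewer cells of a type and less RNA per cell cannot be told apart.

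Muscle fibre transcripts dominated every library. The summed level of 10 fibre markers lay between 139495 and 192186 CPM (counts-per-million, scaled by library), and that of 4 hepatocyte markers between 0.274 and 27.8 CPM. Markers of fat cells were present in every library, at 1447 to 3632 CPM over 12 white adipocyte markers, some of which (Fabp4, Car3) muscle itself or its vessels also express. The depth of a library, its sum of expected counts, was 40.79 M at the median and lay between 26.04 M and 84.79 M (M, the metric prefix mega). Libraries also differed in lymphocyte markers, whose sum over 12 genes ran from 32.03 to 657 CPM.

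The genes lie on 7 chromosomes. On the build GRCm38, Acly occupies chromosome 11, 100476353 to 100528000, Acaca chromosome 11, 84129672 to 84401651, Fasn chromosome 11, 120805846 to 120824547, and Srebf1 chromosome 11, 60199089 to 60222581. Scd1 is on chromosome 19, 44394451 to 44407709, Elovl6 on chromosome 3, 129532355 to 129638495, and Thrsp on chromosome 7, 97412938 to 97417730. Slc25a1 is on chromosome 16, 17925211 to 17928219, Acss2 on chromosome 2, 155517948 to 155585724, and Mlxipl on chromosome 5, 135089890 to 135138382. Scd1 stands beside near-identical relatives, and its expected count was fractional in 46 of 47 libraries, so its level is uncertain. Counts were also fractional for Acaca in 21 libraries and for Acss2 in 20, and for the other 7 genes in 0.

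Promoter sequences are shown for the 4 genes that, among the members, stand for the steps before, at and around fatty acid synthase and whose levels moved together across libraries. Each sequence is the 250 bases before a RefSeq gene or transcript start, 5′ to 3′ on the gene's own strand, on GRCm38.p6, for which 9 of the 10 members had an entry. For Acly, Fasn and Slc25a1 that start is the gene's start given above, while the RefSeq start of Thrsp lies 180 bases inside the span given above, so that 180 of its 250 bases are within that span. Capitals mark 3 short motifs searched on both strands: CACGTG, the E-box bound by USF and ChREBP factors, CCAAT, bound by NF-Y, and GGGCGG, the GC box bound by Sp factors. The windows are chr11:100528001-100528250 for Acly, chr11:120824548-120824797 for Fasn, chr7:97417551-97417800 for Thrsp and chr16:17928220-17928469 for Slc25a1, all on the minus strand.
Acly: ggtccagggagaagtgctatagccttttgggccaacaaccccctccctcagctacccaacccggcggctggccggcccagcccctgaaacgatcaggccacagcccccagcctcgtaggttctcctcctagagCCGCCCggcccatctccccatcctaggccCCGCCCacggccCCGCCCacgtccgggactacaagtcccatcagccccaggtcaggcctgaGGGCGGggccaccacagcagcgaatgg
Fasn: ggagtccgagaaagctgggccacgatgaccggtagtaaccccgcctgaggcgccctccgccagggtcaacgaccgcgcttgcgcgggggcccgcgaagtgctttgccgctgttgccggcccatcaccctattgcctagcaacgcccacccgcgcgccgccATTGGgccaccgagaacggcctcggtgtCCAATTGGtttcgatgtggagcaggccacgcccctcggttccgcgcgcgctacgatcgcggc
Thrsp: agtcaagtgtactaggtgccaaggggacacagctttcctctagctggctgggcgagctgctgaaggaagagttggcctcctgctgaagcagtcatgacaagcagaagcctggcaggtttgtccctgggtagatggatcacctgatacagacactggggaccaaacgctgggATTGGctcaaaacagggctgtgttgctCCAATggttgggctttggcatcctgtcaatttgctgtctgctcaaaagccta
Slc25a1: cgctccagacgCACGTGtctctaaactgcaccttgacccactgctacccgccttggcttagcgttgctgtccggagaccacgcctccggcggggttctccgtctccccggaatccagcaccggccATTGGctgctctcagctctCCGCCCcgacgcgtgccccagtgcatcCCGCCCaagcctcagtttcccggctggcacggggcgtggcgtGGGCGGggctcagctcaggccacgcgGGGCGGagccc
The Acly window held 4 GC boxes, the Fasn window 3 CCAAT matches of which 2 overlap on opposite strands, the Thrsp window 2 CCAAT matches, both within the gene's span, and the Slc25a1 window 1 E-box, 1 CCAAT and 4 GC boxes. Of the 12 windows of the 9 members, 7 held CCAAT (6 genes) and 6 held GC boxes (5 genes). The E-box was in 2 windows (Slc25a1 and Mlxipl) and the sterol element TCACNCCAC in 1 (Mlxipl). Among 32851 RefSeq promoter windows of the same length, 33.8% held CCAAT, 32.7% a GC box, 6.02% the E-box and 1.05% the sterol element. The windows of Elovl6 and Acaca held none of these letters. Of the 12 windows 7 reached into the span given above, among them that of Elovl6 by 31 bases and that of Acaca with all 250, its RefSeq start being 65766 bases past the gene's start. A match is a description of the letters only.

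Per kilobase of exon, Scd1 was the most abundant of the 10 genes and Elovl6 among the scarcest. In CAST/EiJ on 10% fat the level was 704 CPM per kilobase for Scd1, 156 for Fasn, 76.4 for Thrsp, 57.7 for Acly, 41.7 for Slc25a1 and 18.9 for Acaca. It was 15.2 for Mlxipl, 13.5 for Srebf1, 6.89 for Acss2 and 4.28 for Elovl6. In C57BL/6J on the same diet Scd1 also led, at 254 CPM per kilobase, ahead of Fasn at 23.8, while the 2 transcription factors Mlxipl (14.0) and Srebf1 (12.1) stood above Thrsp (10.7), Acly (8.09), Acaca (4.58), Slc25a1 (4.55), Acss2 (3.97) and Elovl6 (1.23). The factors thus had like levels in both strains while the enzymes did not.

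Ranked over the 12 groups, 8 of the 10 genes had their highest mean in CAST/EiJ females on 10% fat. The mean level of Fasn ran from 2067 CPM there to 101 CPM in NZO/HlLtJ males on 44% fat, and that of Thrsp from 196 to 4.92 CPM between the same groups. Acly ran from 389 CPM to 23.5 CPM in C57BL/6J males on 44% fat, and Slc25a1 from 112 to 5.76 CPM between those groups. Elovl6 ran from 38.9 CPM to 1.88 CPM in CAST/EiJ males on 44% fat, so its extremes lay within 1 strain. Srebf1 and Mlxipl stood apart, with Srebf1 highest in NZO/HlLtJ males on 10% fat (98.3 CPM) and lowest in NZO/HlLtJ females on 44% fat (48.4 CPM). Mlxipl was highest in C57BL/6J females on 10% fat (89.8 CPM) and lowest in NZO/HlLtJ males on 44% fat (58.9 CPM). Groups next to each other in these orders had overlapping libraries in 11 of 11 pairs for 9 genes and in 10 of 11 for Slc25a1.

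**Figure D1:**
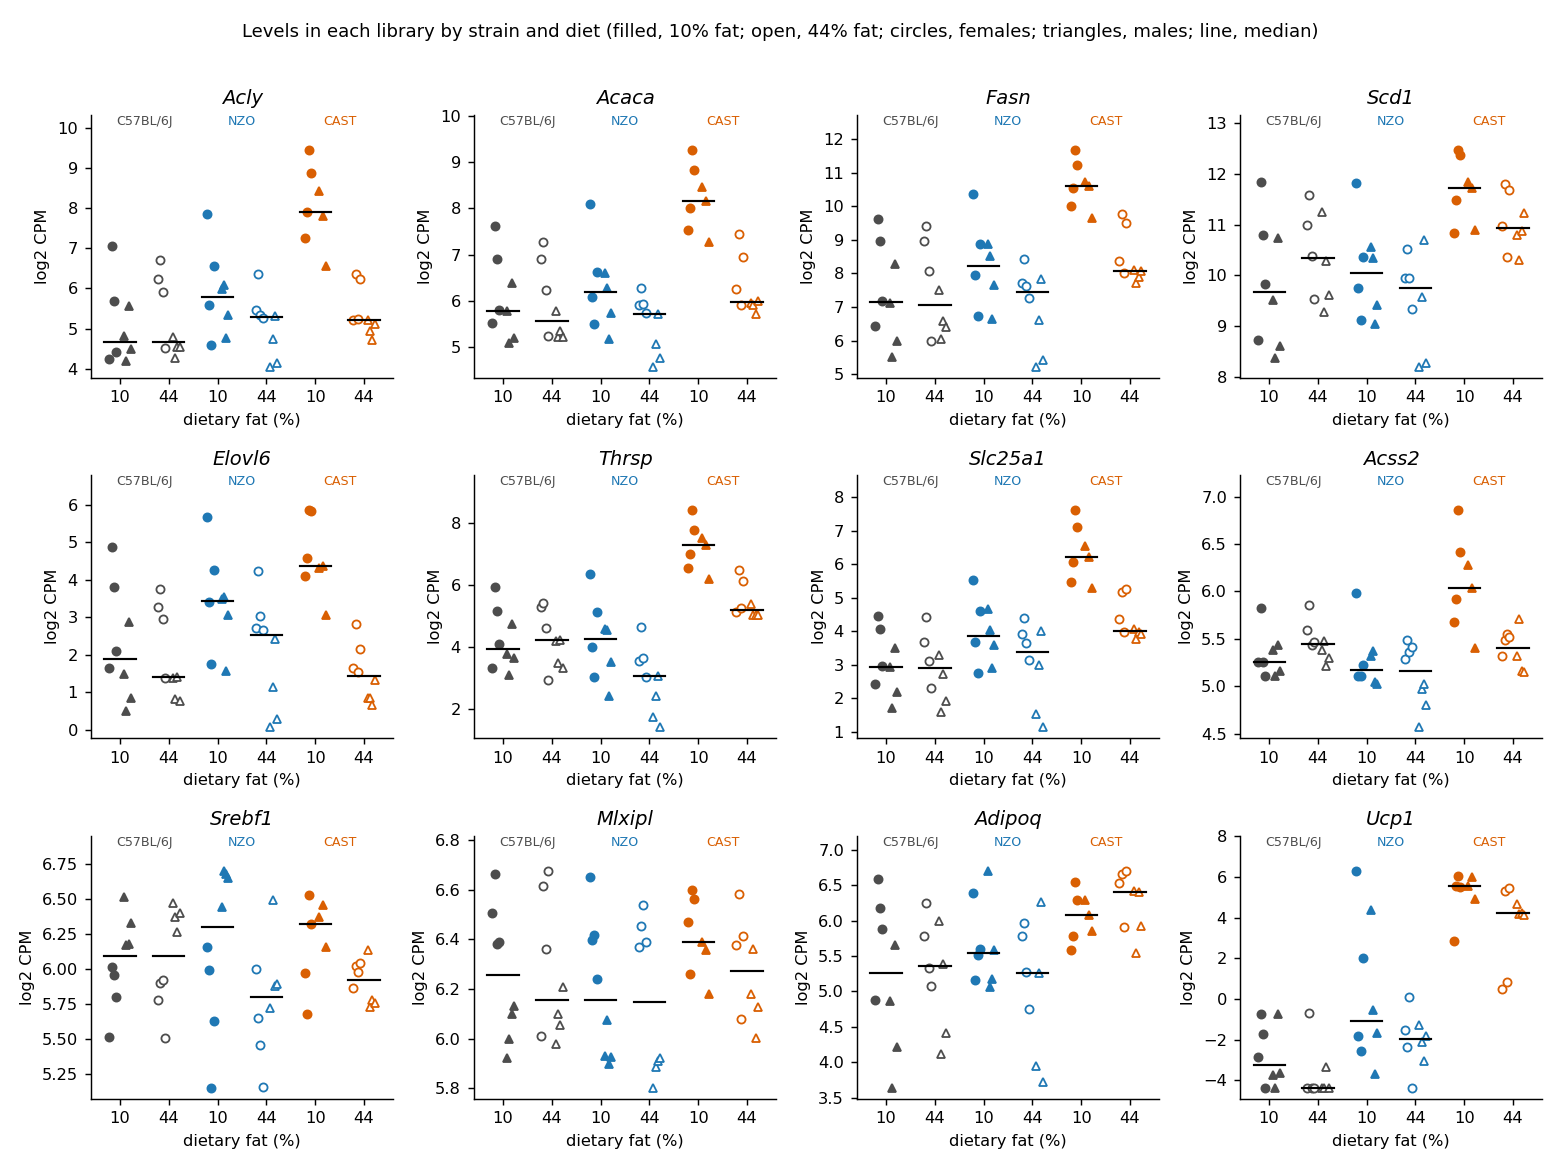
Level of the 10 fatty acid synthesis genes, Adipoq and Ucp1 in each library (y axis, log2 CPM) by strain and diet (x axis), with 1 point per library, circles for females, triangles for males, filled for 10% and open for 44% fat, and a line at the median of each strain and diet. In CAST/EiJ the 10% fat points of Acly, Elovl6 and Slc25a1 lie above all 44% fat points, while those of Srebf1 and Mlxipl overlap.

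In CAST/EiJ, 6 of the 10 genes fell on the 44% fat diet, and the other 4 did not pass the test. Those that fell were Acly, Acaca, Elovl6, Thrsp, Slc25a1 and Acss2. In the same comparison 0.134% of all genes tested were called (23 of 17159, 22 of them lower). All 10 genes had a negative log2 fold change, with a median of −1.95 against 0 over all genes tested. The test was edgeR's quasi-likelihood test on all 47 libraries with adjustment over all genes, an error after ± is a standard error (SE), and n was 7 libraries on 10% fat and 8 on 44% fat.

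The citrate steps separated the diets completely in this strain. In CAST/EiJ females on 10% fat, Acly stood at 152, 237, 700 and 468 CPM, and on 44% fat at 37.3, 81.9, 37.9 and 75.3 CPM. In males it stood at 343, 222 and 93.7 CPM on 10% fat and at 36.9, 30.8, 26.2 and 34.8 CPM on 44% fat. The lowest library on 10% fat, a male, was thus above the highest on 44% fat, a female (log2 fold change −2.78 ± 0.43, adjusted p = 0.000471). Slc25a1 had 44.8, 66.7, 197 and 138 CPM in females on 10% fat against 20.5, 35.9, 15.6 and 38.6 CPM on 44% fat. In males Slc25a1 had 93.0, 75.1 and 39.0 CPM against 16.7, 13.7, 15.7 and 15.1 CPM (−2.10 ± 0.41, adjusted p = 0.0131). The diets did not overlap for Slc25a1, although the gap was narrow, from 38.6 to 39.0 CPM. Acss2, the acetate route, ran from 42.2 to 116 CPM with a median of 65.5 on 10% fat and from 35.4 to 52.3 with a median of 42.4 on 44% fat (−0.72 ± 0.15, adjusted p = 0.0193), and its ranges overlapped.

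Of the chain-building enzymes, Elovl6 and Acaca fell, and Fasn and Scd1 did not pass. Elovl6 had 17.3, 23.8, 57.8 and 56.6 CPM in females on 10% fat and 3.07, 7.08, 2.87 and 4.43 CPM on 44% fat. In males it had 19.8, 20.6 and 8.29 CPM against 1.77, 1.75, 1.55 and 2.46 CPM, again with no overlap over both sexes (−3.18 ± 0.51, adjusted p = 0.00068). Acaca ran from 155 to 619 CPM with a median of 288 on 10% fat and from 52.3 to 174 with a median of 62.5 on 44% fat (−2.01 ± 0.35, adjusted p = 0.00288). Only the highest female on 44% fat reached into the 10% range. Fasn had 1039.6, 1499.9, 3307 and 2422 CPM in females on 10% fat and 334, 873, 259 and 725 CPM on 44% fat. In males Fasn had 1693, 1568 and 812 CPM against 272, 209, 240.1 and 269 CPM. Its change was as large as that of Acaca but did not pass (−2.22 ± 0.53, adjusted p = 0.0818), and a single female on 44% fat lay above the lowest male on 10% fat. Scd1 ran from 1822 to 5688 CPM on 10% fat and from 1268 to 3551 CPM on 44% fat, with wide overlap (−0.67 ± 0.45, adjusted p = 1).

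Of the 3 regulators, Thrsp fell and both transcription factors did not pass. Thrsp ran from 73.6 to 343 CPM with a median of 156 on 10% fat and from 33.0 to 89.4 with a median of 36.8 on 44% fat (−1.89 ± 0.42, adjusted p = 0.0476). Srebf1 had medians of 79.9 and 60.7 CPM (−0.32 ± 0.13, adjusted p = 0.799), and Mlxipl had 83.9 and 77.4 CPM (−0.11 ± 0.08, adjusted p = 1). The 95% interval of the Srebf1 change reached from −0.57 to −0.06 and that of Mlxipl from −0.27 to 0.05. In the same libraries Adipoq had a median of 67.7 CPM on 10% fat and 84.9 CPM on 44% fat (0.19 ± 0.34, adjusted p = 1), so its median was not lower on 44% fat. Of 12 white adipocyte markers 0 were called in either direction and 2 were negative (median 0.14), and their summed level was 1447 to 2585 CPM on 10% fat and 1468 to 2967 CPM on 44% fat. Of 7 brown adipocyte markers 0 were called and 6 were negative (median −0.68), and Ucp1 itself ran from 7.10 to 66.7 CPM on 10% fat and from 1.35 to 43.6 CPM on 44% fat (−1.06 ± 0.77, adjusted p = 1). Lymphocyte markers summed to 151 to 438 CPM on 10% fat and 92.4 to 355 CPM on 44% fat, and with their level as a term in the model 7 members were called (0.198% of all genes), Fasn among them (adjusted p = 0.0483). Hepatocyte markers were negative for 4 of 4 (median −1.15, 0 called), with a summed level of 0.303 to 7.55 CPM on 10% fat and 0.448 to 2.04 CPM on 44% fat.

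Acly, Acaca and Elovl6 were called without any 1 of the 15 CAST/EiJ libraries. Slc25a1 did not pass without female 10% fat replicate 3, female 44% fat replicate 1, male 10% fat replicate 1 or male 10% fat replicate 2 (adjusted p 0.0541 to 0.0659), and the count of members fell to 3 in each of those 4 fits. Acss2 was also lost without male 44% fat replicates 1, 3 or 4 (adjusted p 0.053 to 0.14 over its 7 fits). Thrsp was kept only without female 10% fat replicates 1 or 2, female 44% fat replicate 2 or male 10% fat replicate 3, with adjusted p of 0.0625 to 0.191 in the other 11 fits. Fasn passed without female 10% fat replicate 1 (adjusted p = 0.0453). Within each of 3 stretches of consecutive sample numbers (identifier runs), the difference between diets in mean log2 CPM was −2.62 to −2.18 for Acly, −3.00 to −2.70 for Elovl6 and −1.92 to −1.73 for Slc25a1. Over both sexes, 44% fat libraries lay entirely below 10% fat libraries for 3 members in CAST/EiJ (Acly, Elovl6, Slc25a1) and for 0.0874% of all genes. In NZO/HlLtJ and C57BL/6J they did so for 0 members, against 0.0117% and 0.0175% of all genes.

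**Figure D2:**
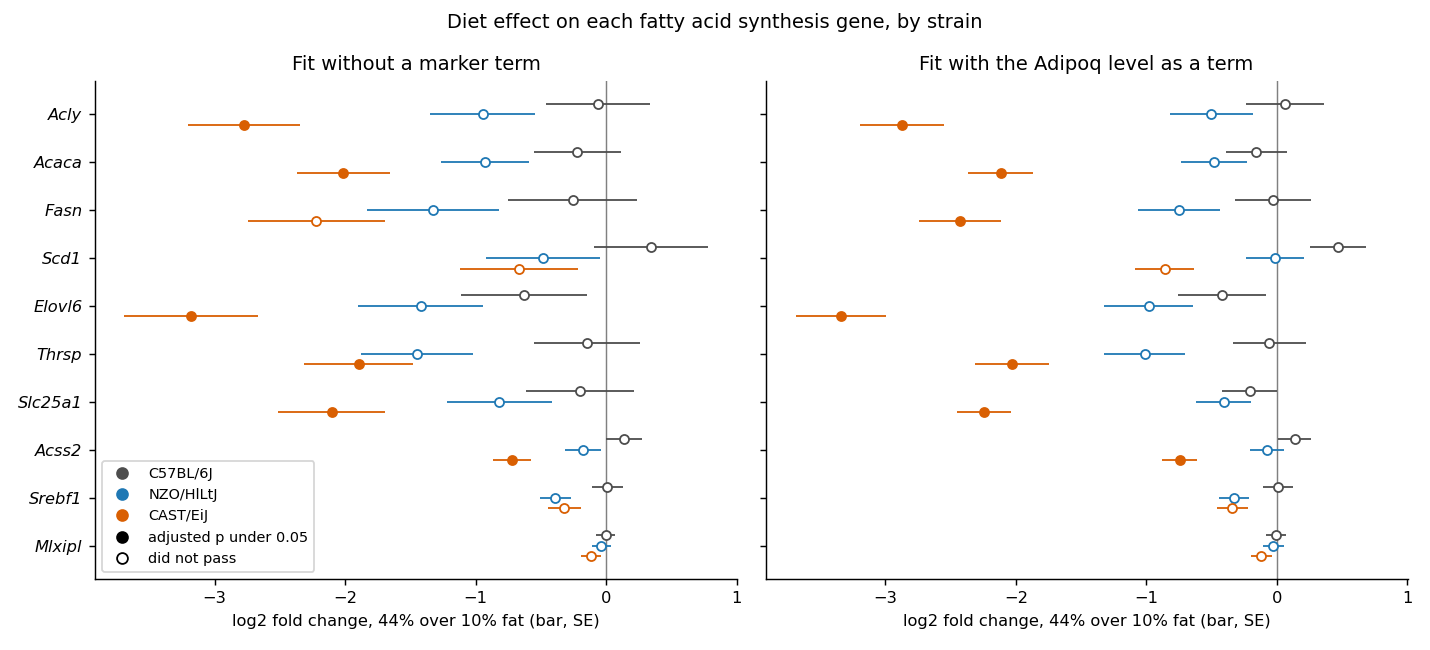
Diet effect on each gene in each strain as log2 fold change of 44% over 10% fat (x axis) with standard error bars, without (left) and with (right) the Adipoq level as a term, filled points marking an adjusted p under 0.05. Without the Adipoq term, CAST/EiJ points lie farthest to the left (−2.78 for Acly, −3.18 for Elovl6) except for Srebf1, where NZO/HlLtJ does (−0.39 against −0.32), and C57BL/6J points lie between −0.63 and 0.34.

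In NZO/HlLtJ, none of the 10 genes passed by edgeR, although all 10 changes were negative and 6 had an unadjusted p under 0.05. DESeq2 called 1 member, Thrsp (adjusted p = 0.0344, 1.44% of the genes with an adjusted p), limma on the deposited log2 values called 0, and 0.408% of all genes tested were called by edgeR. The median change of the members was −0.87 against −0.0173 over all genes. Thrsp ran from 5.40 to 82.1 CPM with a median of 19.8 on 10% fat and from 2.62 to 25.3 with a median of 8.30 on 44% fat (−1.45 ± 0.43, n = 8 and 8, adjusted p = 0.113). Elovl6 had medians of 10.8 and 5.80 CPM (−1.42 ± 0.48, adjusted p = 0.18), Fasn of 305 and 175 CPM (−1.32 ± 0.50, adjusted p = 0.246) and Acly of 56.0 and 39.0 CPM (−0.95 ± 0.40, adjusted p = 0.3). Acaca had −0.93, Slc25a1 −0.82, Scd1 −0.48, Srebf1 −0.39, Acss2 −0.18 and Mlxipl −0.04. Diets overlapped for every member in this strain. Female 10% fat replicate 1 held the highest NZO/HlLtJ value of Acly (230 CPM), Acaca (275 CPM), Fasn (1309 CPM), Elovl6 (51.3 CPM), Thrsp (82.1 CPM), Slc25a1 (46.2 CPM) and Ucp1 (79.0 CPM). Ucp1 fell in this strain (−5.11 ± 1.17, adjusted p = 0.0353), from a lowest, median and highest of 0.0297, 0.456 and 79.0 CPM on 10% fat to 0, 0.209 and 1.01 CPM on 44% fat. That call rested on few libraries and was lost without any 1 of 8 of the 16 (adjusted p 0.0536 to 0.435). White adipocyte markers had a median change of −0.40 with 0 of 12 called. Lymphocyte markers were negative for 12 of 12 (median −2.93, 0 called), but their summed levels overlapped between diets. These ran from 34.0 to 657 CPM (median 71.8) on 10% fat and from 32.03 to 73.6 CPM (median 54.8) on 44% fat. The highest level was that of a female, while males on 10% fat reached at most 86.4 CPM. With the lymphocyte level as a term 0 members were called in NZO/HlLtJ (0.664% of all genes), and Thrsp had −1.32 (adjusted p = 0.0867). Within the only identifier run with libraries of both diets from both sexes, Acly differed by −1.23, Elovl6 by −1.98 and Thrsp by −1.78. Srebf1 alone was called when replicate 3 of the females on 10% fat (adjusted p = 0.0476) or replicate 2 of the males on 44% fat (adjusted p = 0.0486) was left out.

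In C57BL/6J, 0 of the 10 genes passed, and 0% of all genes did so. None of the members had an unadjusted p under 0.05, and DESeq2 and limma called 0 of them. Acly ran from 18.3 to 133 CPM with a median of 25.4 on 10% fat and from 19.3 to 104 with a median of 25.7 on 44% fat. Fasn had medians of 143 and 140 CPM. Changes ran from −0.63 for Elovl6 to 0.34 for Scd1, with a median of −0.10. The interval of the Acly change was −0.87 to 0.75, that of Acaca −0.90 to 0.46, that of Slc25a1 −1.05 to 0.64 and that of Fasn −1.26 to 0.75. Changes as large as those of CAST/EiJ lay outside these intervals for these 4 genes, and smaller changes in either direction lay within them. Within its 3 identifier runs the difference for Acly ran from −0.19 to 0.98.

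Within single sexes no member was called in any strain by edgeR, with background shares of 0.0175% in CAST/EiJ females, 0.00583% in CAST/EiJ males, 0.0408% in NZO/HlLtJ females, 0.0583% in NZO/HlLtJ males, 0.00583% in C57BL/6J females and 0% in C57BL/6J males. In CAST/EiJ, 7 members in females and 8 in males had an unadjusted p under 0.05. DESeq2 called 3 members in CAST/EiJ females (0.134% of all genes) and 2 in males (0.0583%), and limma called 2 (0.111%) and 0 (0.0117%). Both sexes of CAST/EiJ had like values, with Acly at −2.83 ± 0.60 in females (n = 4 and 4, adjusted p = 0.0728) and −2.73 ± 0.61 in males (n = 3 and 4, adjusted p = 0.189). Tests of the difference in diet effect between females and males called 0 members and 0% of all genes in each strain, and no member had an unadjusted p under 0.05 in them. In NZO/HlLtJ that test is limited, because within most of its identifier runs all libraries of a sex had the same diet.

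The test of whether the diet effect differed between strains did not pass for any member. Between CAST/EiJ and C57BL/6J the difference was −2.71 ± 0.58 for Acly (adjusted p = 0.125), −0.86 ± 0.20 for Acss2 (adjusted p = 0.229), −2.55 for Elovl6 and −1.79 for Acaca, with 0.0175% of all genes called and 7 members at an unadjusted p under 0.05. DESeq2 called 2 members here, Acly and Acss2 (0.0774% of the genes with an adjusted p), and limma 0. Without CAST/EiJ female 10% fat replicate 1 edgeR called 2 members, Acly (adjusted p = 0.04) and Acss2 (adjusted p = 0.04), and without C57BL/6J female 10% fat replicate 2 it called Acly alone (adjusted p = 0.00947). Between CAST/EiJ and NZO/HlLtJ, Acly had −1.83 ± 0.57 (adjusted p = 0.446), 5 members had an unadjusted p under 0.05, and 0.0117% of all genes were called. Between NZO/HlLtJ and C57BL/6J, Thrsp had −1.30 ± 0.59 (adjusted p = 0.745), 2 members had an unadjusted p under 0.05, and 0% of all genes were called.

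Levels of the enzymes followed Adipoq from library to library within each strain, after the mean of each group was removed. Pearson's r of log2 CPM was taken over 15 CAST/EiJ, 16 NZO/HlLtJ and 16 C57BL/6J libraries, with two-sided permutation within groups and adjustment over the 60 relations of 10 genes, 2 markers and 3 strains. The relation to Adipoq passed for 8 members in CAST/EiJ, 8 in NZO/HlLtJ and 7 in C57BL/6J. By an unadjusted permutation p under 0.05, the same numbers of members stood beside 16.8%, 19.9% and 29.5% of all genes in the 3 strains. When adjusted over all genes instead, 1, 1 and 7 members passed. Slc25a1 had the highest or second highest r in each strain, with 0.82 in CAST/EiJ (permutation adjusted p = 0.00048, rho 0.79 with 0.00263), 0.85 in NZO/HlLtJ (permutation adjusted p = 0.00354, rho 0.82 with 0.0146) and 0.94 in C57BL/6J (permutation adjusted p = 0.0002, rho 0.91 with 0.0006). Scd1 had 0.82, 0.82 and 0.95, and Fasn 0.78, 0.75 and 0.85. Acly had 0.70, 0.61 and 0.73, Acaca 0.72, 0.66 and 0.80, Thrsp 0.73, 0.66 and 0.82, and Elovl6 0.63, 0.66 and 0.81. The acetate enzyme Acss2 passed in NZO/HlLtJ only (r = 0.55, permutation adjusted p = 0.0389, against 0.40 and 0.51 in the other strains), Srebf1 in CAST/EiJ only (0.66, permutation adjusted p = 0.0486), and Mlxipl in none (0.37, 0.20 and −0.10). Whether these r differ between strains was not tested. Without the 2 libraries of a strain farthest from its median of Adipoq, 4 members passed in CAST/EiJ (Acaca, Fasn, Thrsp and Slc25a1), 1 in NZO/HlLtJ (Slc25a1) and 7 in C57BL/6J, and Slc25a1 had 0.86, 0.75 and 0.93. In NZO/HlLtJ the r of Acly fell from 0.61 to 0.57 (permutation adjusted p = 0.086), that of Fasn from 0.75 to 0.67 (permutation adjusted p = 0.0598), that of Scd1 from 0.82 to 0.71 and that of Acss2 from 0.55 to 0.48. In CAST/EiJ Acly had 0.71 (permutation adjusted p = 0.0523), Scd1 0.74, Elovl6 0.59 and Srebf1 0.65. With all 15 libraries the CAST/EiJ r of Acly, Scd1, Elovl6 and Srebf1 were 0.70, 0.82, 0.63 and 0.66. Leaving out 2 libraries left 13 in CAST/EiJ and 14 in NZO/HlLtJ. A call lost with fewer libraries does not alone show that a relation rests on the 2 left out. Within each identifier run over all strains, the r of Acly, Acaca, Fasn, Scd1, Elovl6, Thrsp and Slc25a1 with Adipoq lay between 0.65 and 0.90.

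**Figure D3:**
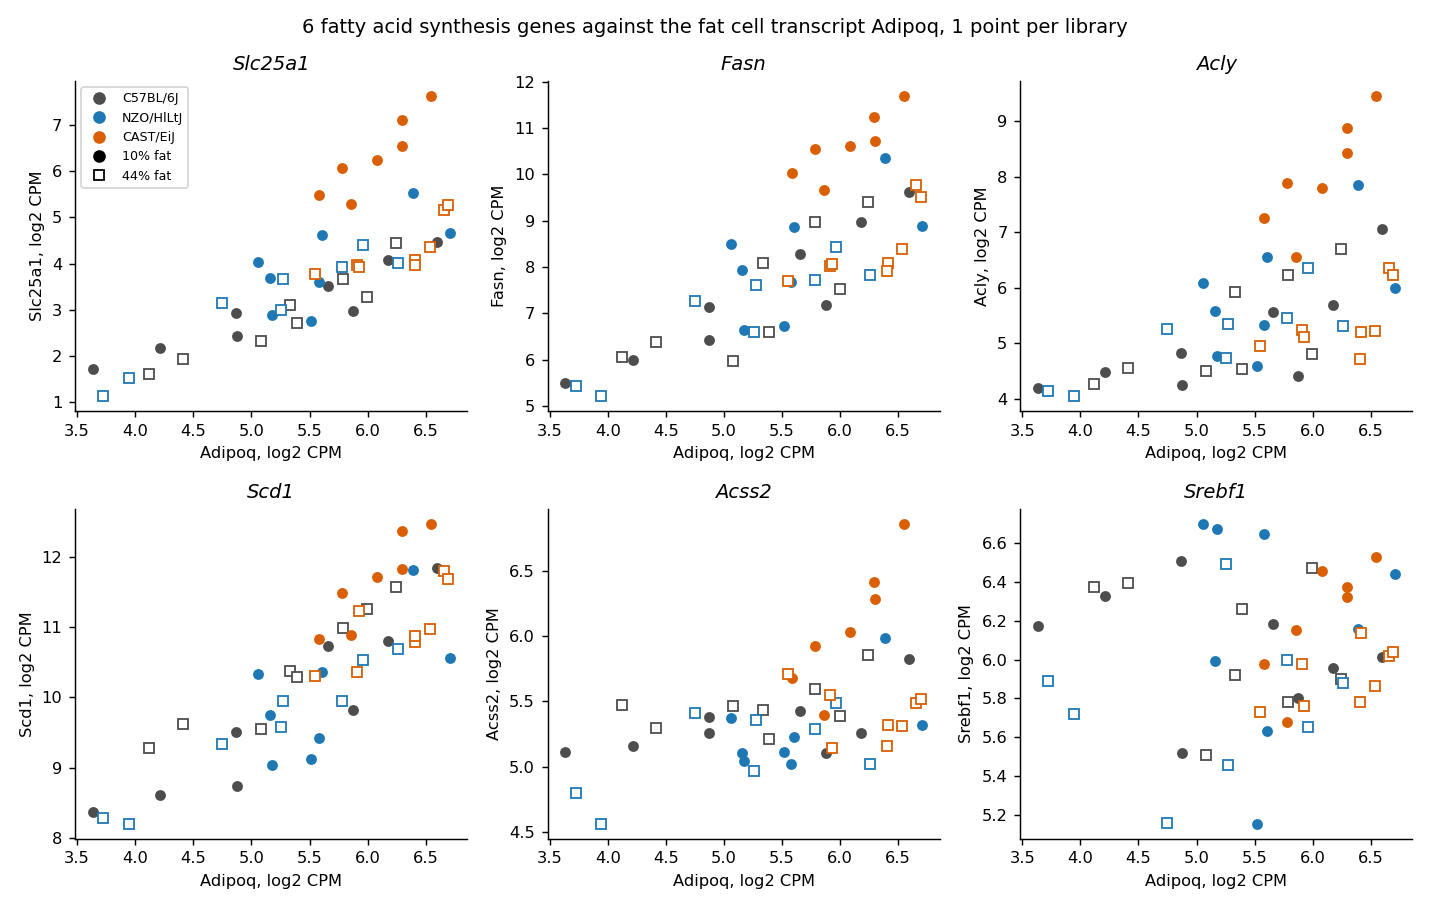
Level of 6 synthesis genes (y axis, log2 CPM) against that of Adipoq (x axis, log2 CPM) in each of the 47 libraries, coloured by strain, with filled circles for 10% and open squares for 44% fat. The points of Slc25a1, Fasn, Acly and Scd1 rise with Adipoq within NZO/HlLtJ and C57BL/6J, and those of Srebf1 are scattered. Group means are kept here, and with them kept no member's relation to Adipoq passed in CAST/EiJ. For Slc25a1, Fasn and Acly the CAST/EiJ libraries on 10% fat lie above those on 44% fat at like Adipoq levels.

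The relation to Ucp1 passed for no member without the 2 libraries of a strain farthest from its median of Ucp1. With all libraries it passed for 7 members in CAST/EiJ, 6 in NZO/HlLtJ and 8 in C57BL/6J, beside 15.3%, 6.67% and 12% of all genes by an unadjusted permutation p under 0.05, and for 0 members in each strain when adjusted over all genes. Fasn had the highest r in CAST/EiJ (0.86, permutation adjusted p = 0.0154, rho 0.83 with 0.0272), Acaca in NZO/HlLtJ (0.78, permutation adjusted p = 0.0154, rho 0.61 with 0.0936) and Elovl6 in C57BL/6J (0.78, permutation adjusted p = 0.0154, rho 0.72 with 0.0246). In NZO/HlLtJ 3 libraries held 79.0, 20.8 and 4.03 CPM of Ucp1 and the other 13 held at most 1.01 CPM. Without the 2 farthest libraries r fell from 0.78 to 0.45 for Acaca, from 0.58 to 0.29 for Slc25a1 and from 0.60 to 0.26 for Scd1 in that strain. The count of calls there also fell when single libraries with at most 1.01 CPM of Ucp1 were left out, as given below. In CAST/EiJ, with 13 libraries left, r changed less. It went from 0.86 to 0.795 for Fasn (permutation adjusted p = 0.0598) and from 0.78 to 0.746 for Acaca (permutation adjusted p = 0.086). It rose from 0.71 to 0.74 for Acly and from 0.75 to 0.79 for Slc25a1 (permutation adjusted p = 0.0625). In C57BL/6J Ucp1 never exceeded 0.571 CPM and its median on 44% fat was 0, so r rests on few reads. Without CAST/EiJ female 10% fat replicate 3 the count in CAST/EiJ fell to 1. In C57BL/6J it fell to 2 without male 10% fat replicate 3 and to 4 without female 10% fat replicate 2. In NZO/HlLtJ 8 of the 16 libraries each brought it to 0, 1 or 2 when left out, namely all 4 females and male replicates 1, 3 and 4 on 10% fat and female replicate 4 on 44% fat.

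**Figure D4:**
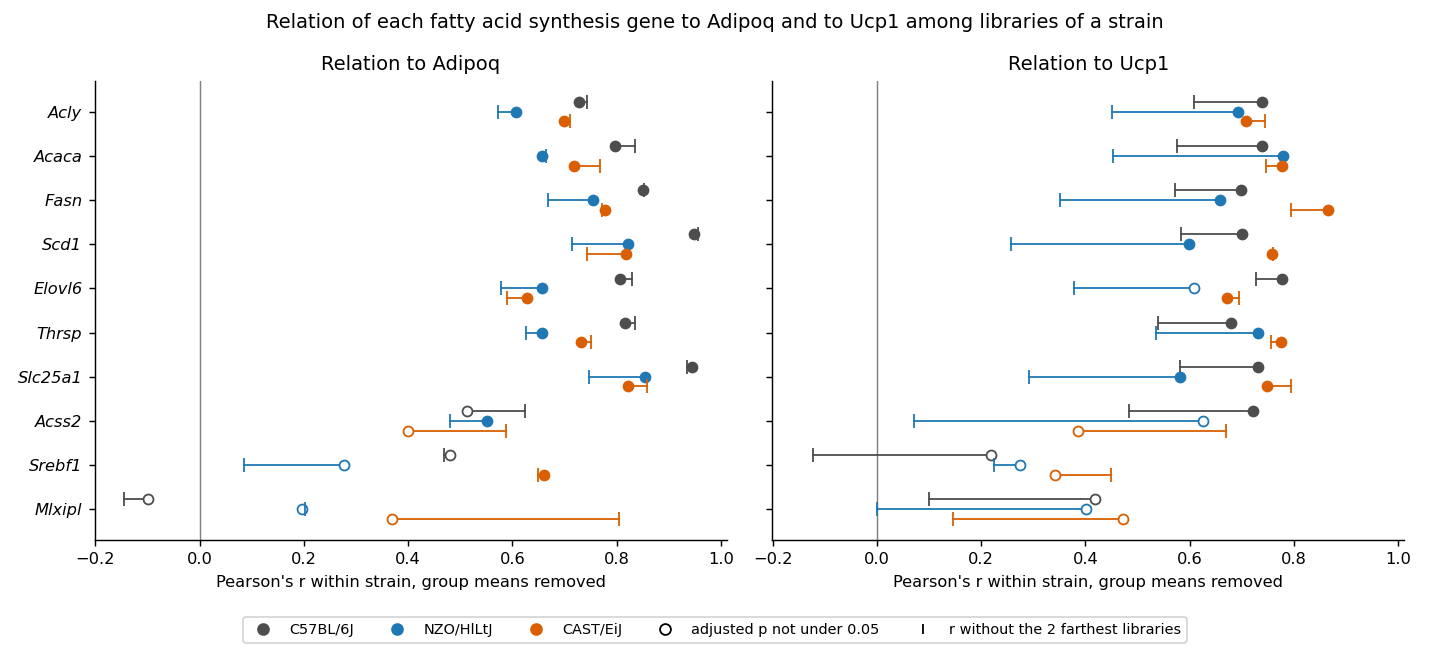
Pearson's r of each gene with Adipoq (left) and Ucp1 (right) within each strain after group means were removed (x axis), with open points where the adjusted p was not under 0.05 and a tick at r without the 2 libraries farthest from the marker's median. Slc25a1 and Scd1 reach 0.94 and 0.95 with Adipoq in C57BL/6J, and ticks for Ucp1 in NZO/HlLtJ lie well to the left of their points.

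Read against Adipoq, the CAST/EiJ diet difference was sharper than in CPM. The ratio of Acly to Adipoq ran from 1.62 to 7.50 with a median of 4.32 on 10% fat and from 0.309 to 0.813 with a median of 0.602 on 44% fat, a ratio of medians of 7.18. No 44% fat library reached the 10% range for 6 members, Acly, Acaca (ratio of medians 4.42), Fasn (5.30), Elovl6 (9.25), Thrsp (3.95) and Slc25a1 (4.66). This was so for 0.204% of all genes in CAST/EiJ. For Scd1 (2.01), Acss2 (2.34), Srebf1 (1.43) and Mlxipl (1.31) the ranges overlapped. In NZO/HlLtJ and C57BL/6J the ratios of all 10 members overlapped between diets. In each, 0% of all genes had every 44% fat ratio below every 10% fat ratio. The ratio of medians for Acly was 1.03 in NZO/HlLtJ and 0.861 in C57BL/6J, and that for Elovl6 was 2.25 and 1.21.

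**Figure D5:**
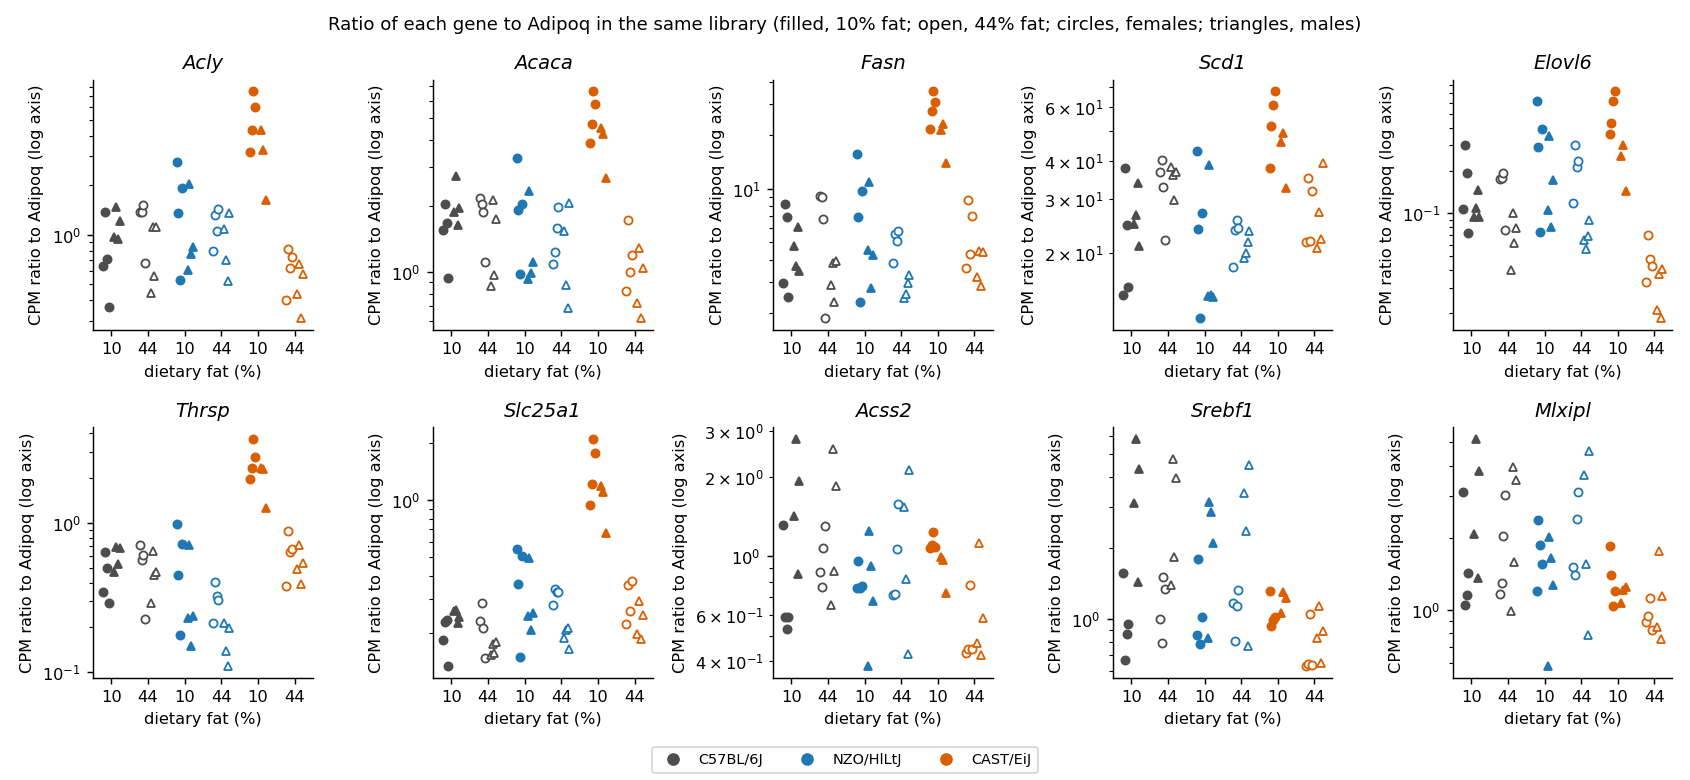
Ratio of each gene's CPM to the Adipoq CPM of the same library (y axis, log scale) by strain and diet (x axis), 1 point per library, circles for females, triangles for males, filled for 10% and open for 44% fat. In CAST/EiJ the 10% fat ratios of Acly lie between 1.62 and 7.50, all above the 44% fat ratios of 0.309 to 0.813, while the diets overlap in the other strains.

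With the log2 Adipoq level of each library as a further term in the model, 7 members fell in CAST/EiJ (0.6% of all genes called). These were Acly, Acaca, Elovl6, Thrsp, Slc25a1, Acss2 and also Fasn, which had −2.43 ± 0.32 (adjusted p = 5.22e-06). Acly had −2.87 ± 0.32 (adjusted p = 2.21e-07), Elovl6 −3.34 ± 0.35 (adjusted p = 3.97e-08) and Slc25a1 −2.24 ± 0.20 (adjusted p = 2.40e-09), with the standard error of Slc25a1 down from 0.41. Scd1 had −0.86 ± 0.23 (adjusted p = 0.0744), and Srebf1 (−0.34) and Mlxipl (−0.12) did not pass. In NZO/HlLtJ 0 members passed with this term (0.216% of all genes), and most changes were nearer 0, with Acly at −0.50, Scd1 at −0.01 and Thrsp at −1.01 ± 0.31 (adjusted p = 0.185). In C57BL/6J 0 members and 0% of all genes passed. The strain test did pass with this term. Between CAST/EiJ and C57BL/6J the diet effects of 7 members differed (0.152% of all genes), among them Acly (−2.93 ± 0.44, adjusted p = 0.000307) and Slc25a1 (−2.04 ± 0.29, adjusted p = 0.000189), and those of Scd1, Srebf1 and Mlxipl did not pass. Between CAST/EiJ and NZO/HlLtJ 4 members differed (0.157% of all genes), Acly (−2.37), Acaca (−1.64), Elovl6 (−2.36) and Slc25a1 (−1.84).

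With the log2 Ucp1 level as the term instead, 6 members fell in CAST/EiJ (0.157% of all genes), namely Acly, Acaca, Elovl6, Thrsp, Slc25a1 and Acss2, with Acly at −2.33 ± 0.33 (adjusted p = 0.00011) and Fasn not passing at −1.73 ± 0.41 (adjusted p = 0.0747). In NZO/HlLtJ 0 members passed (0.0991% of all genes), and values were near 0 for Acly (−0.04), Slc25a1 (0.05) and Acaca (−0.14), with Scd1 at 0.40 and Thrsp at −0.45. How far the NZO/HlLtJ changes and the Ucp1 level share a source was not tested.

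On 10% fat, 8 of the 10 genes were higher in CAST/EiJ than in C57BL/6J muscle, where 49.7% of all genes tested differed. Slc25a1 had 90.3 CPM in CAST/EiJ and 9.85 CPM in C57BL/6J (log2 fold change 3.23 ± 0.43, n = 7 and 8, adjusted p = 6.56e-08). Thrsp had 167 against 23.3 CPM (2.91 ± 0.43, adjusted p = 4.98e-07), Fasn 1712 against 260.4 CPM (2.87 ± 0.54) and Acly 305 against 42.7 CPM (2.86 ± 0.43). Acaca (2.12), Elovl6 (1.99), Scd1 (1.55 ± 0.46, adjusted p = 0.00451) and Acss2 (0.79) were higher too. Srebf1 (0.17, adjusted p = 0.271) and Mlxipl (0.13, adjusted p = 0.171) did not pass. These 8 calls held without any 1 of the 31 libraries of the pair of strains. Adipoq had 68.3 against 45.9 CPM (0.69 ± 0.34, adjusted p = 0.092), and with its level as a term 8 members were called (49.2% of all genes), with Slc25a1 at 2.39 and Acly at 2.28. Of 7 brown adipocyte markers 6 were higher in CAST/EiJ (median 4.01), Ucp1 by 7.88 ± 1.18. With the Ucp1 level as a term 0 members were called (34.3% of all genes), and Slc25a1 had 1.19 (adjusted p = 0.0732) and Acly 0.75. Every CAST/EiJ library had more Ucp1 (at least 1.35 CPM) than every C57BL/6J library (at most 0.571 CPM), so in this comparison the strain and the Ucp1 level cannot be told apart.

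CAST/EiJ also exceeded NZO/HlLtJ on 10% fat for 8 members, beside 50.0% of all genes. Thrsp led with 167 against 25.8 CPM (2.91 ± 0.44, adjusted p = 7.81e-07), followed by Slc25a1 (2.32), Fasn (2.24), Acly (2.14), Acaca (1.90), Scd1 (1.52) and Acss2 (0.84). Mlxipl was the eighth (0.19 ± 0.08, adjusted p = 0.0429), and it was lost without any 1 of 11 of the 31 libraries (adjusted p 0.0549 to 0.0882). Elovl6 (0.97, adjusted p = 0.0956) and Srebf1 (0.08) did not pass. With the Ucp1 level as a term 4 were called (42.1% of all genes), Acaca, Thrsp, Slc25a1 and Acss2. Of 7 brown adipocyte markers 6 were higher in CAST/EiJ here too (median 1.37), and lymphocyte markers were higher there for 12 of 12 (median 2.73, 2 called). With the lymphocyte level as a term 6 members were called (50.3% of all genes), without Fasn and Scd1. NZO/HlLtJ and C57BL/6J did not differ past the threshold for any member, while 25.8% of all genes did. There Elovl6 had 1.02 (adjusted p = 0.131) and Slc25a1 0.91 (adjusted p = 0.111), 2 members had an unadjusted p under 0.05, and DESeq2 and limma called 0. Lymphocyte markers had lower estimates in NZO/HlLtJ for 12 of 12 (median −2.40), but their summed levels overlapped. These ran from 34.0 to 657 CPM (median 71.8) in NZO/HlLtJ and from 55.4 to 394 CPM (median 209) in C57BL/6J. With the lymphocyte level as a term 4 members were higher in NZO/HlLtJ (28.4% of all genes called), Acly (1.30), Fasn (1.64), Elovl6 (1.71) and Slc25a1 (1.51). Without C57BL/6J female 10% fat replicate 2, Acly and Elovl6 were higher in NZO/HlLtJ, and Elovl6 alone without NZO/HlLtJ female 10% fat replicate 3 or C57BL/6J male 10% fat replicate 3 (adjusted p 0.0309 to 0.0452).

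Between the sexes of NZO/HlLtJ and of C57BL/6J, the transcription factors had the smallest adjusted p-values of the members. Srebf1 was lower and Mlxipl higher in females of NZO/HlLtJ and of C57BL/6J. In NZO/HlLtJ Srebf1 had 51.7 CPM in females and 81.7 CPM in males (−0.65 ± 0.12, n = 8 and 8, adjusted p = 0.000223), and Mlxipl 86.6 against 60.5 CPM (0.52 ± 0.07, adjusted p = 4.42e-06). In C57BL/6J Srebf1 had 56.1 against 81.1 CPM (−0.51 ± 0.12, n = 8 and 8, adjusted p = 0.00274), and Mlxipl 88.2 against 66.9 CPM (0.41 ± 0.08, adjusted p = 0.00014). In C57BL/6J Srebf1 ran from 72.2 to 91.1 CPM in males and from 45.4 to 64.5 CPM in females. In NZO/HlLtJ Mlxipl ran from 75.6 to 101 CPM in females and from 55.7 to 67.3 CPM in males. How many of all genes separate the sexes without overlap was not counted. The 4 calls of Srebf1 and Mlxipl held without any 1 of the 16 libraries of the strain. In CAST/EiJ Srebf1 had −0.02 and Mlxipl 0.18 (adjusted p = 0.233), and 0 members passed, 4 with an unadjusted p under 0.05 and 0 by DESeq2 or limma. Whether the sex difference itself differs between strains was not tested for these genes here. Elovl6 was higher in females of NZO/HlLtJ (1.68 ± 0.48, adjusted p = 0.0163) and of C57BL/6J (1.79 ± 0.53, adjusted p = 0.0163), with 1.31 ± 0.51 in CAST/EiJ (adjusted p = 0.158). Thrsp was higher in NZO/HlLtJ females (1.33 ± 0.42, adjusted p = 0.0337) and Acaca in C57BL/6J females (1.03 ± 0.36, adjusted p = 0.0455). Called genes made up 4.27% of all genes between the sexes in CAST/EiJ, 11.8% in NZO/HlLtJ and 15.2% in C57BL/6J. In C57BL/6J Adipoq was also at 57.7 CPM in females and 31.8 CPM in males (0.87 ± 0.35, adjusted p = 0.0884). With its level as a term only Srebf1 and Mlxipl were called there (10.6% of all genes). White adipocyte markers were higher in C57BL/6J females for 12 of 12 (median 0.76, 2 called) and Schwann cell markers for 5 of 5 (median 0.73, 5 called), and lymphocyte markers had a median of 0.70 with 0 called. In NZO/HlLtJ females lymphocyte markers had a median of 2.93 (11 of 12 positive, 0 called), with a summed level of 32.03 to 657 CPM in females and 52.8 to 86.4 CPM in males, and 2 of 6 macrophage markers were higher (median 0.23). With the lymphocyte level as a term the same 4 members were called in NZO/HlLtJ (14% of all genes), and in C57BL/6J Fasn was called besides the 4 (18.6% of all genes). The part of the Schwann cell and macrophage markers in these results was not tested. Elovl6 in NZO/HlLtJ was lost without female 10% fat replicate 1 or female 44% fat replicate 2, and Thrsp without any 1 of 8 libraries (adjusted p 0.0507 to 0.15). Acaca in C57BL/6J was lost without any 1 of 11, and Elovl6 there without male 10% fat replicate 2 (adjusted p = 0.0606).

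The members moved together. Over all 47 libraries with group means removed, the 21 pairs among Acly, Acaca, Fasn, Scd1, Elovl6, Thrsp and Slc25a1 had r between 0.891 and 0.968. The median r with the other 9 members was 0.677 for Acss2, 0.512 for Srebf1 and 0.214 for Mlxipl. Among 12037 protein-coding genes with a mean of at least 1 CPM, those whose log2 CPM followed the mean of the 10 members most closely over the 47 libraries were Tkt (r = 0.962), a transketolase of the pentose phosphate pathway, Agpat2 (0.952), which builds phosphatidic acid for triglyceride, and Acat2 (0.936), an acetyl-CoA acetyltransferase. They were followed by Aacs (0.935), which activates acetoacetate, Pygl (0.928), a glycogen phosphorylase, Aldh1a7 (0.913), Slc25a10 (0.908), the dicarboxylate carrier, Pgd (0.903) of the pentose phosphate pathway, Mrap (0.892) and Rbp4 (0.890), the retinol carrier. Adipoq ranked 109 in that order (0.777) and Ucp1 245 (0.686). All points share the depth and composition of their libraries, and these r are descriptions.

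Other genes around the pathway were read from lists of fixed membership, which were chosen with earlier results of these data known. Of 8 genes that supply NADPH, the reducing agent of the synthesis, Tkt fell in CAST/EiJ (176 to 41.8 CPM, −2.10 ± 0.37, adjusted p = 0.0033). All 8 changes were negative (median −0.31), with Pgd at −0.87 (adjusted p = 0.175), the malic enzyme Me1, also counted among the other enzymes, at −0.38 (adjusted p = 0.108) and Taldo1 at −0.24 (adjusted p = 0.236). Of 13 other fatty acid synthesis enzymes 0 passed and 12 were negative (median −0.43). The elongase Elovl3, a brown fat marker as well, had −2.76 ± 0.66 (adjusted p = 0.092), Elovl5 −0.45 (adjusted p = 0.23) and Mid1ip1, a partner of acetyl-CoA carboxylase, −0.45 (adjusted p = 0.594). Of 15 genes driven by SREBP2, chiefly of cholesterol synthesis, 0 passed and 14 were negative (median −0.27), with Sqle at −0.95 (adjusted p = 0.376), Nsdhl at −0.54 and Dhcr7 at −0.38. Steps on either side had medians near 0, with −0.05 for 11 genes of glucose entry and pyruvate (Pdhb −0.22, adjusted p = 0.152; Gpd1 −0.24; Pcx −0.47; Mpc2 −0.12) and −0.06 for 7 of triglyceride assembly (Agpat2 −0.77, Gpam 0.07, Lpin1 −0.06, Dgat2 −0.16). Of 17 SREBP and LXR regulators 0 passed (median −0.04), with Insig1 at −0.48, Pparg at −0.49, Mlx at −0.18 and Ppargc1b at −0.23. Of 12 fatty acid oxidation genes 0 passed and 0 were negative (median 0.09; Ech1 0.24, Decr1 0.14, Mlycd 0.17, Acadl 0.17). The median over all genes in CAST/EiJ was 0, and 0.134% of them were called. In NZO/HlLtJ, where 0.408% of all genes were called, Pcx fell (−0.60 ± 0.15, adjusted p = 0.0499). Ech1 (0.49 ± 0.09, adjusted p = 0.00862) and Acadl (0.53 ± 0.11, adjusted p = 0.022) of fatty acid oxidation rose there. The other call in these lists there was Mlxip, which encodes MondoA, a relative of ChREBP (0.26 ± 0.06, adjusted p = 0.0275), named after its value was seen. In C57BL/6J 0 genes of these lists passed.

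On 10% fat the lists were read between CAST/EiJ and C57BL/6J, where 49.7% of all genes were called. In CAST/EiJ 11 of 13 other fatty acid synthesis enzymes were higher (median 0.63), 6 of 8 NADPH genes were higher and 1 lower (median 0.46), and 4 of 7 triglyceride genes were higher (median 0.89). Of 15 SREBP2 targets 7 were higher and 1 lower (median 0.15), and of 12 white adipocyte markers 5 were higher and 1 lower (median 0.70). The regulators went both ways, with 7 of 17 higher and 6 lower (median 0.11). The called shares of the triglyceride genes (4 of 7), the SREBP2 targets (8 of 15) and the white adipocyte markers (6 of 12) lay near that of all genes.

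On the chromosome, the nearest tested gene on each side was read for each member, 20 genes in all, and 2 fell in CAST/EiJ on 44% fat. Ttc25, a cilium gene on the plus strand of chromosome 11 (100545607 to 100572568), lies 17607 bases beyond the start of Acly. It had a mean of 2.95 CPM on 10% fat and 0.329 CPM on 44% fat (−3.15 ± 0.34, n = 7 and 8, adjusted p = 4.65e-07). AA914427 on the plus strand of chromosome 16 (17922043 to 17923208), 2003 bases from the end of Slc25a1, had 2.20 and 0.293 CPM (−2.81 ± 0.36, adjusted p = 2.36e-05). Neither passed in NZO/HlLtJ (−0.36 and −0.46) or C57BL/6J (−0.25 and −0.91). The other neighbours did not pass in CAST/EiJ, among them Tada2a, 72 bases from Acaca (−0.03), Ccdc57, 1982 bases from Fasn (0.09), and Scd2, a relative of Scd1 (−0.64, adjusted p = 0.897). Ggt7 and Gss overlap Acss2 and Rai1 overlaps Srebf1, and use of strand in counting is not stated, so reads in the overlaps cannot be assigned to 1 gene with certainty.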

How the data were processed

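RNA from gastrocnemius was sequenced as poly(A) libraries, per the labels' protocols. The authors deposited expected counts per gene and library (81.19% of values whole within 1e-06) and variance-stabilized log2 values. The build is GRCm38 and DESeq2 is named without a version, per the submitters' processing notes. The aligner, quantifier, annotation release and use of strand were not given in the sources used here. Every gene in the deposited table had a value above 0 in at least 24 libraries. No column of another series' samples was present (0 columns).

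Expected counts were rounded and tested with edgeR 4.0.16 (R 4.3.3) by its quasi-likelihood test after TMM scaling and the filterByExpr filter (17159 genes). The model held 12 groups and the identifier run, a stretch of consecutive sample numbers, with 33 residual degrees of freedom. P-values were adjusted by Benjamini and Hochberg over all genes, with a threshold of 0.05. Diet and sex effects average over the other factor. Log2 CPM used a prior count of 2, and CPM per kilobase used the exon length of GENCODE M21. Relations to Adipoq and Ucp1 were permuted within groups. Both procedures were tested on simulated data. The simulated counts for edgeR had the same spread for every gene, so its behaviour for genes with a wider spread was not tested. DESeq2 1.42.0, limma 3.58.1 on the deposited log2 values, RLE scaling, no filter, no run term, fits within strains, marker levels as terms and leaving out each library were tried as alternatives. The lymphocyte term and a slope of Adipoq per strain were chosen after seeing the data.

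The members and lists were chosen with earlier results of these data known. Named genes are the members, Adipoq, Ucp1, up to 4 genes of each other list with the smallest p in CAST/EiJ, the nearest tested neighbours, and the 10 genes most like the members. A gene that this rule picked is not reported here. Promoter windows came from RefSeq on GRCm38.p6.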

Additional observations from a re-analysis of the deposited data

Results flagged for a closer look

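Of 132 sets of values (12 genes in the 11 groups of 4 libraries), 11 held 1 library whose gap to its nearest neighbour exceeded 0.829 of the group's range, the 95% limit of Dixon's test. Chance gives about 1 such set in 20 where values follow a normal distribution, which CPM need not do. With every other library at 0 CPM the gap is the whole range, as for Ucp1 in C57BL/6J females and males on 44% fat. In NZO/HlLtJ females on 44% fat, replicate 2 had 81.7 CPM of Acly and 18.9 CPM of Elovl6, while the other 3 had at most 43.9 and 8.18 CPM. In NZO/HlLtJ females on 10% fat, replicate 1 had 63.2 CPM of Acss2 against at most 37.4 CPM and 79.0 CPM of Ucp1 against at most 4.03 CPM. In NZO/HlLtJ males on 10% fat, replicate 1 had 20.8 CPM of Ucp1 against at most 0.646 CPM. In CAST/EiJ males on 44% fat, replicate 1 stood highest for Thrsp (41.6 CPM), Srebf1 (70.3 CPM) and Ucp1 (24.9 CPM), against at most 33.2, 54.9 and 18.7 CPM. In C57BL/6J, Ucp1 stood at 0.571 CPM in female 44% fat replicate 2, 0.542 CPM in male 10% fat replicate 3 and 0.0512 CPM in male 44% fat replicate 3, with the rest of those groups at most 0.0326 CPM.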

How the results depend on the processing

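No paired analysis was possible because the labels give no replicate numbers shared between groups. Counts of members called under other settings were as follows, and causes of the shifts were not tested. The share of all genes called moved with the setting too. For the diet effect in CAST/EiJ it was 0.134% in the main fit and 0.6% with the Adipoq level as a term. Where no share was given above, a count alone cannot be read as particular to the members. With DESeq2, the diet effect in NZO/HlLtJ called 1 and the difference of diet effects between CAST/EiJ and C57BL/6J called 2, against 0 each. That difference called 7 with the Adipoq level as a term, 2 with Ucp1, 8 with both and 8 with a slope of Adipoq per strain. The difference between CAST/EiJ and NZO/HlLtJ called 4, 1, 5 and 4 in the same order, against 0. On 10% fat, CAST/EiJ against C57BL/6J called 0 with Ucp1 and 1 with both markers, against 8. NZO/HlLtJ against C57BL/6J called 1 with Adipoq, 1 with Ucp1, 1 with both, 1 with a slope per strain and 4 with the lymphocyte level, against 0. CAST/EiJ against NZO/HlLtJ called 4 with Ucp1, against 8. Between the sexes, CAST/EiJ called 3 with Ucp1 and 3 with both, against 0. C57BL/6J called 2 with Adipoq, 2 with both, 2 with a slope per strain and 2 when fitted alone, and NZO/HlLtJ called 2 when fitted alone, against 4 each. Relations to Adipoq in CAST/EiJ called 0 with group means kept, against 8. Without the 2 farthest libraries, relations to Adipoq called 4 in CAST/EiJ and 1 in NZO/HlLtJ, and relations to Ucp1 called 0 in CAST/EiJ, 0 in NZO/HlLtJ and 0 in C57BL/6J.

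Leaving out 1 library at a time gave 3 to 7 members for the diet effect in CAST/EiJ, 0 to 1 in NZO/HlLtJ, 0 to 2 for the difference between CAST/EiJ and C57BL/6J, and 0 to 2 for NZO/HlLtJ against C57BL/6J on 10% fat. CAST/EiJ on 10% fat gave 8 to 9 against C57BL/6J and 7 to 9 against NZO/HlLtJ. The sexes gave 2 to 7 in NZO/HlLtJ, 7 without replicate 3 of the females on 10% fat and 2 without their replicate 1 or without replicate 2 of the females on 44% fat. They gave 2 to 6 in C57BL/6J, 2 without male 10% fat replicate 2. Relations to Ucp1 gave 1 to 9 in CAST/EiJ, 0 to 7 in NZO/HlLtJ and 2 to 8 in C57BL/6J, and relations to Adipoq gave 6 to 8, 7 to 8 and 7 to 8. The share of all genes called in these fits is not given here. No member reversed its direction under any setting where it was called. Ucp1 in C57BL/6J, at most 0.571 CPM, is limited by depth.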
